A study of Mus musculus with 4 samples.

Results

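Accessible chromatin around 5 homeobox genes, Meis1, Meis2, Meis3, Pbx2 and Pbx3, was described from ATAC-seq peak lists of mouse limb buds. The regions of interest were all peaks of either list that overlap 1 of these genes or the 100 kb on either side of it, in the mm10 genome build. This gave 129 of 99356 regions in the E10.5 list and 43 of 37413 in the E11.5 list, named for the embryonic day. In ATAC-seq a transposase, Tn5, cuts and tags accessible DNA, so that open chromatin yields reads. Every sample is labelled as wild-type forelimb and hindlimb, so the limb types cannot be told apart, and the limb cells were dissociated with trypsin and fixed in paraformaldehyde before tagging. How many embryos each sample holds is not given in the sources used here. Each stage had 2 replicates, and each deposited list joins both. The sample titles give the earlier stage as E10.5, while the protocol text gives E10. With 1 list per stage there was no replicate spread, no test between stages, and no known depth, and the stage differences below describe these lists.

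Meis and Pbx proteins belong to the TALE class of homeodomain transcription factors, named for extra residues in a loop of the homeodomain. They bind DNA together and act as partners of Hox proteins. Meis proteins carry Pbx proteins into the nucleus. In the limb bud, Meis1 and Meis2 mark the proximal part, next to the trunk, where retinoic acid favours their expression. Fibroblast growth factors from the apical ridge hold them out of the distal part.

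Each peak carries the authors' signal value, which behaves as a total over the peak and so grows with width. Signal is used here to place a region within its own list, as its rank and as its place in percent from the top. Signals and places of the lists stand side by side only, since the lists differ in length. The lowest signal was 200 in each list. Some E11.5 regions counted below lie close to it, with signals of 204 at Pbx3 and of 205 and 200 at Meis2. A promoter region lies within 1 kb of a start site of the gene. An intragenic region overlaps the gene body, and a flanking region lies in the rest of the window. A region is called shared where it overlaps a region of the other list by at least 1 bp. The threshold of 100 kb crosses 2 E10.5 regions and 1 E11.5 region. The E10.5 regions nearest to the window borders had signals of 231 to 5972 on the inside and 233 to 8516 on the outside.

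A promoter region was present for all 5 genes in both lists. For Meis3 this did not hold in the E11.5 list when peaks of −log10 p below 5 were left out, nor in the E10.5 list reduced by −log10 p to the length of the other, which left 4 genes in each case. Over 21536 protein-coding genes, 69.4% had one in the E10.5 list, 63.5% in the E11.5 list and 63.1% in both, so having one is common. There were 8 promoter regions in each list. Of the 8 at E10.5, 7 were shared, where 84.1% of all E10.5 promoter regions were. All 8 at E11.5 were shared, where 98.7% of all E11.5 promoter regions were.

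Promoter sequences of 4 of the 5 genes were held in the RefSeq table (build GRCm38.p6, with mm10 coordinates), and are shown because their bases lie within called regions of both lists. Each runs from 250 bases before to 50 bases after a start site, 5′ to 3′ on the strand of the gene. Meis1, Meis2 and Meis3 have 2 annotated start sites each, and the sequence is that of the inner one, further inside the gene. The Meis2 sequence lies outside the strongest promoter region of that gene, which is at the outer start site. Capitals mark CCAAT or its reverse complement. The order is Meis1 at chr11:19018920-19019219 (minus strand), Meis2 at chr2:116064570-116064869 (minus strand), Meis3 at chr7:16175145-16175444 (plus strand) and Pbx2 at chr17:34592009-34592308 (plus strand).
Meis1: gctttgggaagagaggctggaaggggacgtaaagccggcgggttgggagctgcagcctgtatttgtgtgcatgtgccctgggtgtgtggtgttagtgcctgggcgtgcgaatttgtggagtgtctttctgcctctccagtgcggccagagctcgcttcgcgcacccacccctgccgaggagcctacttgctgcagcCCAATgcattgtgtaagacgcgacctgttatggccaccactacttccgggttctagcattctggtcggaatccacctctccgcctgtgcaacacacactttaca
Meis2: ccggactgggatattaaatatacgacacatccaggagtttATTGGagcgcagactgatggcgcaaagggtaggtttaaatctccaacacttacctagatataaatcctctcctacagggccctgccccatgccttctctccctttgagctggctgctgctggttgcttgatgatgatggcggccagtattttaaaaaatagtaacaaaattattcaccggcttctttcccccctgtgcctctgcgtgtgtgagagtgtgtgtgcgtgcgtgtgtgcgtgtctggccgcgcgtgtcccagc
Meis3: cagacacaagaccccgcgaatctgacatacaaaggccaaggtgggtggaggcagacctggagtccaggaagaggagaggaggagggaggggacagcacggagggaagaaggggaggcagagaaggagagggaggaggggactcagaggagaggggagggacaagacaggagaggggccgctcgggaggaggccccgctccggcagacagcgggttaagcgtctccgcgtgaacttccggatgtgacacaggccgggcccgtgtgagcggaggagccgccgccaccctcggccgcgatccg
Pbx2: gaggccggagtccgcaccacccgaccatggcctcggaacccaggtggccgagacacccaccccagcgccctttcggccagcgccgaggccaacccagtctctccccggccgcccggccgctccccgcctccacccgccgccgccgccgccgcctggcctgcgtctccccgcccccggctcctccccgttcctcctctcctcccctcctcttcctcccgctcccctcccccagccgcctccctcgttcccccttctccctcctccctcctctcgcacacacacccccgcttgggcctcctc

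All 300 bases of the Meis1, Meis3 and Pbx2 sequences lay within regions of both lists. For Meis2 it was all 300 bases at E10.5 and 273 of them at E11.5. The sequences differed in base composition. The G and C content was 51% in Meis2, 58.3% in Meis1, 66.7% in Meis3 and 76% in Pbx2, and the median over 32851 RefSeq promoters was 52.7%. The number of CG dinucleotides was 13 in Meis2, 15 in Meis1, 21 in Meis3 and 29 in Pbx2, all above the median of 7. Motifs were searched on both strands. The Meis-type core TGACAG was in none of the 4 sequences and in 19.2% of all promoters. The Pbx-type TGATTGAT (0.746% of all promoters), the Pbx-Hox-type TGATTTAT (0.977%) and the composite Pbx-Meis motif (0.222%), which contains TGACAG, were in none of the 4. The direct repeat bound by retinoic acid receptors was also in none, and in 0.00913% of all promoters. CCAAT, an element of many promoters, was in 2 of the 4 and in 37.4% of all promoters. In Meis1 it lay 54 bases before the start site on the strand of the gene, and in Meis2 210 bases before it on the other strand. A missing match says only that these letters are not in this window.

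Meis1, a proximal limb factor and Hox partner, lies on the minus strand at chr11:18880428-19019651 with 2 annotated start sites, 682 bp apart. Its E10.5 promoter region at chr11:19018566-19021634 had a signal of 10725, rank 1529, 1.54% from the top. At E11.5 this interval held 2 regions, at chr11:19018637-19020224 with a signal of 2593 (rank 8252, 22.1% from the top) and at chr11:19020328-19021167 with a signal of 1900. Ranked by signal per bp, the E10.5 promoter region of Meis1 stood 7.75% from the top. By E10.5 signal the Meis1 promoter region was the second strongest of the 5 genes.

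Pbx3, a Pbx gene of long gene body, had the promoter region of highest signal of the 5 genes in both lists. It lies on the minus strand at chr2:34171457-34372045. The E10.5 region at chr2:34370331-34374194 had a signal of 12625, rank 870, 0.876% from the top. The E11.5 region at chr2:34371025-34373608 had a signal of 6392, rank 1366, 3.65% from the top. Among promoter regions alone, these stood 3.92% and 8.80% from the top. With ranking by signal per bp, the place of the Pbx3 region was 9.82% at E10.5, behind Meis1 at 7.75%, and 19.9% at E11.5, still ahead of the other genes.

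Meis2, the other proximal limb Meis gene, lies on the minus strand at chr2:115861264-116067537 with start sites 2918 bp apart. It had 3 promoter regions in each list, and each E10.5 region overlapped 1 of those at E11.5. The strongest spanned the outer start site. At E10.5 it ran over chr2:116065539-116068111 with a signal of 7378, rank 4491, 4.52% from the top. At E11.5 it ran over chr2:116065545-116067792 with a signal of 3664, rank 5349, 14.3% from the top. By signal per bp these places were 14.6% and 43.2%, and by −log10 p 16.6% and 28.7%. It also spans the start of the noncoding RNA gene G630016G05Rik. The inner start site lay in a weaker region, at chr2:116064487-116064917 with a signal of 667 in the E10.5 list, and at chr2:116064523-116064842 with a signal of 288 at E11.5. The last promoter region had a signal of 1100 at chr2:116063709-116064315 at E10.5 and of 915 at chr2:116063730-116064419 at E11.5. Just outside the 1 kb limit, 1042 bp from the inner start site, an E10.5 region at chr2:116060079-116063577 with a signal of 6040 held 4 separate E11.5 regions, with signals of 392 to 1013.

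Pbx2, a short Pbx gene in a gene-dense interval, lies on the plus strand at chr17:34592259-34597400. Its single promoter region had a signal of 7965 at E10.5 (chr17:34590749-34594125, rank 3712, 3.74% from the top) and of 2681 at E11.5 (chr17:34591180-34593555, rank 7993, 21.4% from the top). At E10.5 this region also came within 1 kb of the start site of Gpsm3. Ranked by signal per bp, its places in the E10.5 and E11.5 lists were 23.1% and 69.7%, and by −log10 p 19.0% and 31.8%.

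Meis3 had the promoter regions of lowest signal, when the strongest of each gene are compared, and also the lowest place by signal per bp and by −log10 p in both lists. It lies on the plus strand at chr7:16174012-16186510 with start sites 1383 bp apart. The inner start site was in a region of signal 1325 at E10.5 (chr7:16174751-16175621, rank 36548, 36.8% from the top) and of signal 424 at E11.5 (chr7:16175019-16175447, rank 25028, 66.9% from the top). Among promoter regions alone, these stood 81.5% and 90.9% from the top. The outer start site had an E10.5 region at chr7:16173997-16174368, with a signal of 500, which was the only promoter region of the 5 genes that was not shared. With the outer start site alone, Meis3 had a promoter region in the E10.5 list and none in the E11.5 list.

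**Figure D1:**
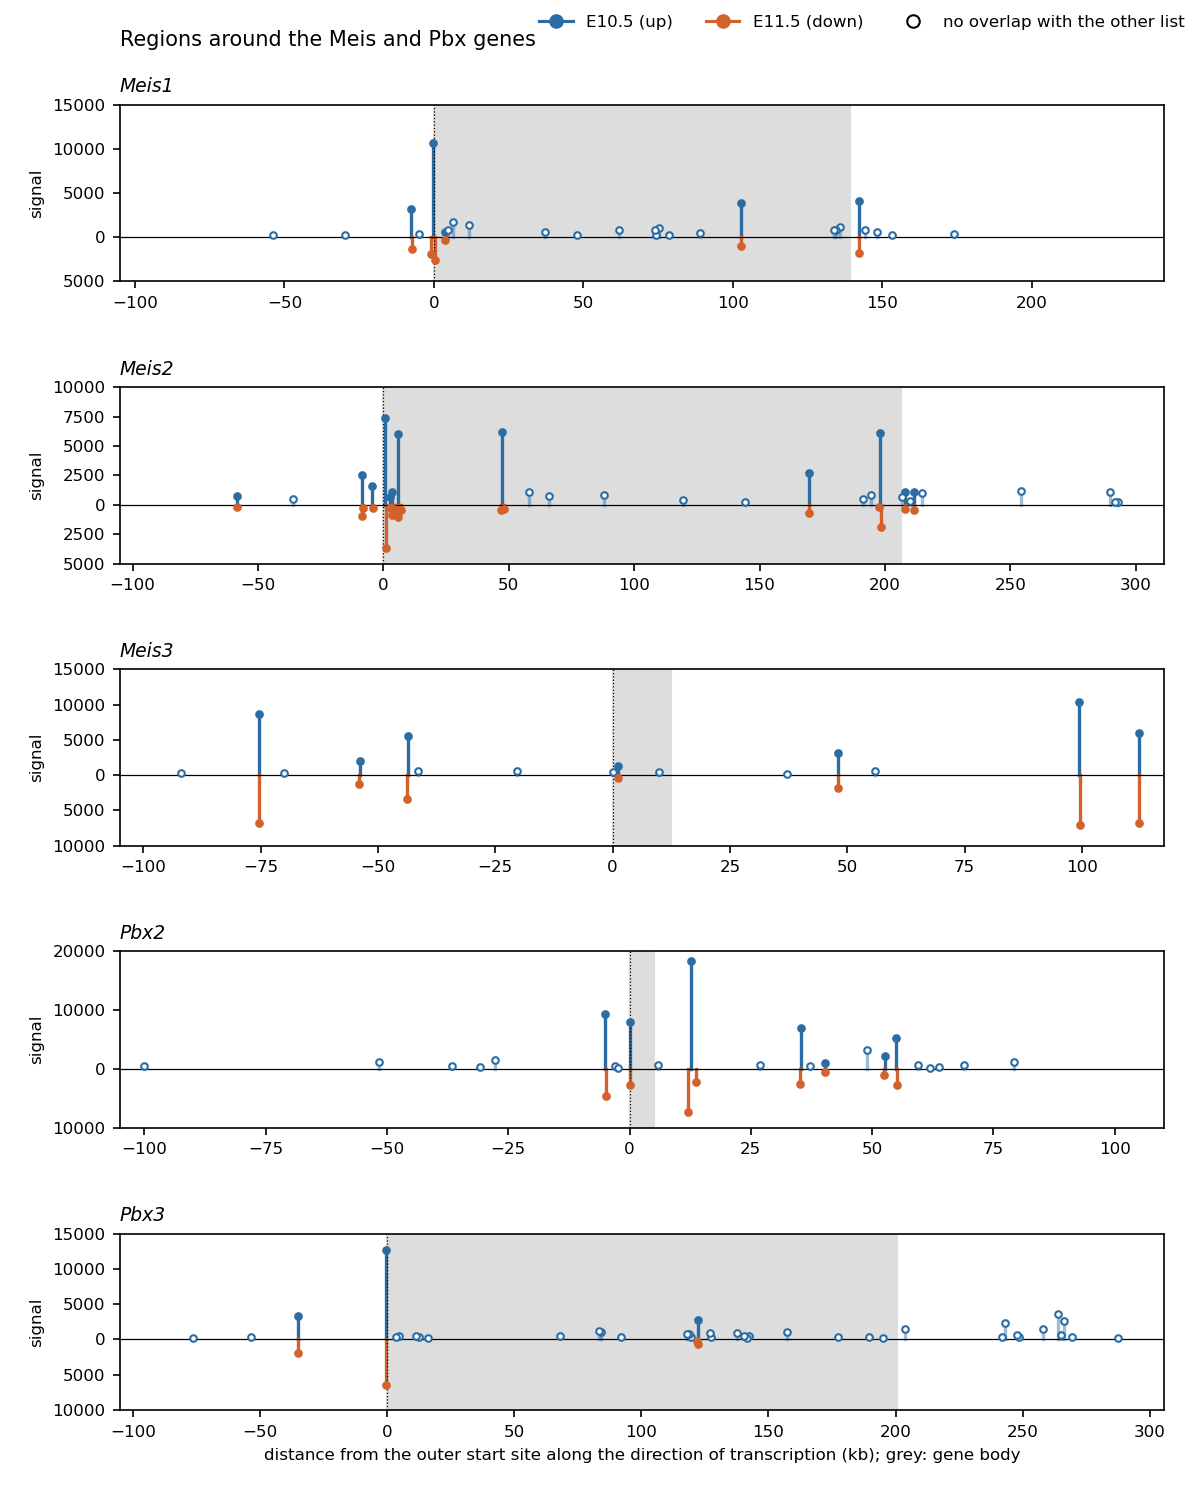
Regions around each gene against distance from its outer start site in kb, along the direction of transcription, with E10.5 signal drawn upward and E11.5 signal downward and the gene body in grey. Filled points overlap the other list and open points do not. All 43 E11.5 regions are filled, and in Pbx3 3 of 38 E10.5 regions are.

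Over the 5 windows, 34 of 129 E10.5 regions were shared, which is 26.4% (95% Wilson interval 19.5 to 34.6%, counting error only). Over the whole E10.5 list it was 32.3%, so the members' share lay near that of the list. All 43 E11.5 regions were shared, against 91.8% of the E11.5 list, and no region of the windows was in the E11.5 list only. Of the 43, 40 lay wholly inside an E10.5 region, as did 72.8% of the E11.5 list. Of the 34 shared E10.5 regions, 7 overlapped more than 1 E11.5 region, against 6.84% of shared E10.5 regions of the list, and 4 of the 7 were at Meis2. Regions at no protein-coding start site numbered 103 at E10.5, of which 16 were shared (15.5%, 9.79 to 23.8%), beside 22.4% for the list. At E11.5 there were 23 of these, all shared, beside 87.6%. Of 51 intragenic E10.5 regions 7 were shared, which is 13.7% (6.81 to 25.7%), beside 20.2% of E10.5 regions inside genes.

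**Figure D2:**
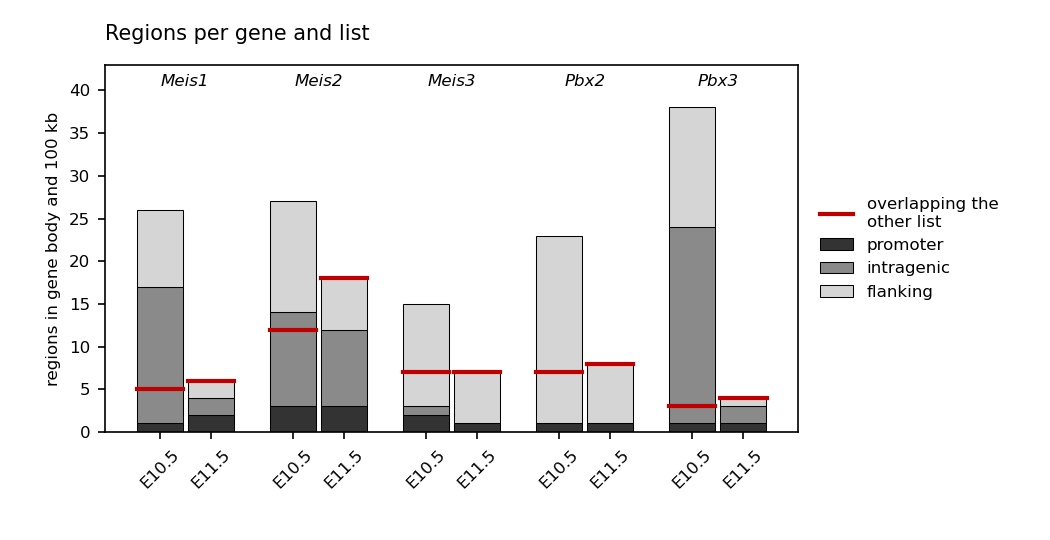
Number of regions per gene and list in the gene body and 100 kb on either side, stacked by class (promoter, intragenic, flanking), with a red line at the number that overlap the other list. Pbx3 has 38 regions in the E10.5 list and 4 in the E11.5 list, and Meis2 has 27 and 18, where the median over all protein-coding genes is 13 and 6.

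The genes differed in how much of their E10.5 landscape was also in the E11.5 list. The share was 7.89% at Pbx3 (3 of 38 regions, 2.72 to 20.8%), 19.2% at Meis1 (5 of 26, 8.51 to 37.9%), 30.4% at Pbx2 (7 of 23, 15.6 to 50.9%), 44.4% at Meis2 (12 of 27, 27.6 to 62.7%) and 46.7% at Meis3 (7 of 15, 24.8 to 69.9%). The intervals, which hold counting error only, overlap for neighbours in this order. That of Pbx3 overlaps neither that of Meis2 nor that of Meis3. Regions of a window are not replicates, so the difference between genes was not tested. Among the 9164 windows of protein-coding genes with at least 15 E10.5 regions, the median share was 37.9%. Among them Pbx3 stood at percentile 0.993, Meis1 at 12.3, Pbx2 at 34.1, Meis2 at 62.4 and Meis3 at 66.0. Neighbouring windows hold some of the same regions. The windows were not matched for regions at protein-coding start sites, of which 84.1% were shared over the E10.5 list. Of E10.5 regions at no such start, 22.4% were shared. Non-promoter regions at no such start made up 36 of the 38 at Pbx3 and 25 of the 26 at Meis1. They made up 24 of the 27 at Meis2, 11 of the 23 at Pbx2 and 7 of the 15 at Meis3. At Meis3, 6 of the 7 shared regions lay at starts of other genes. When peaks of −log10 p below 5 were left out of both lists, the Meis2 share was 25% of 20 regions and the Pbx3 share 17.6% of 17, so the place of Meis2 above Pbx2, then at 42.9%, and above Meis1, then at 30.8%, did not hold. Without regions at start sites of other genes, the Meis3 share was 11.1% of 9.

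Pbx3 had more E10.5 regions than 96.9% of 21536 protein-coding genes, and its 4 E11.5 regions were more than those of 31.1%. Its window is long, and per kb of window these percentiles were 80.4 and 25.4. Its 23 intragenic E10.5 regions had summits 3.56 to 195 kb from the start site, and 1 of them was shared. The strongest, at chr2:34249276-34250539, 122 kb into the gene, had a signal of 2743 and was the shared one. It held 2 E11.5 regions, at chr2:34249506-34249839 with a signal of 613 and at chr2:34249986-34250303 with a signal of 204. The next 2 intragenic E10.5 regions, with signals of 1223 (chr2:34288555-34288908) and 1128 (chr2:34287444-34288049), lay 83.3 and 84.3 kb into the gene and were in the E10.5 list only. Beyond the 3′ end, the strongest flanking region, at chr2:34107495-34109014, had a signal of 3677, rank 14777, 14.9% from the top, and was not shared. It spans the start of the noncoding RNA gene C230014O12Rik. A further E10.5-only region of signal 2591 lay beside it, at chr2:34105169-34106699. The single shared flanking region, at chr2:34406312-34407410, had a signal of 3377 at E10.5 and of 1949 at E11.5 (chr2:34406629-34407387). It lay at the start site of Mapkap1, a subunit of the TORC2 kinase complex. Of 36 non-promoter E10.5 regions at no protein-coding start site in this window, 1 was shared, where 22.4% of such regions in the list were. The median place of the 36 was 70.8% from the top.

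Meis2 had the most E11.5 regions of the 5 genes. Its 18 E11.5 regions were more than those of 96.2% of protein-coding genes, and its 9 intragenic E11.5 regions more than those of 99.4%. Those 9 overlapped 4 intragenic E10.5 regions. The lead of Meis2 did not hold when peaks of −log10 p below 5 were left out. Meis2 and Meis1 then had 5 E11.5 regions each, Meis3 had 6, Pbx2 7 and Pbx3 3. A long gene body can hold more regions, and per kb of window the percentile of Meis2 was 80.3 in the E11.5 list and 62.2 in the E10.5 list. Of its 12 shared E10.5 regions, 4 overlapped more than 1 E11.5 region, 10 in all. The strongest intragenic E10.5 regions lay at chr2:116018991-116021574 with a signal of 6214 (6.68% from the top), 43.8 kb from the inner start site, at chr2:115868669-115870491 with a signal of 6087, and at chr2:116060079-116063577, given above. All 3 were shared. The region near the 3′ end of the gene, at 195 kb, was the strongest intragenic one in the E11.5 list, at chr2:115868696-115869570 with a signal of 1896 (28.8% from the top). The region at 43.8 kb held 2 E11.5 regions, with signals of 446 and 352. Next in the E11.5 list were the regions at chr2:116060893-116062091, with a signal of 1013, and at chr2:115897548-115897943, with a signal of 695. The latter overlapped an E10.5 region of signal 2730.

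On the flanks of Meis2, the strongest E10.5 region was at chr2:116075428-116076527 with a signal of 2558, over the start of the noncoding RNA gene 2810405F15Rik, 8.52 kb upstream of the outer start site. At E11.5 it held a region of signal 939 (chr2:116075881-116076523) and a region of signal 277. Another, at chr2:116071300-116072591, had a signal of 1628 at E10.5 and was shared with an E11.5 region of signal 315. The third, at chr2:115812717-115814200, with a signal of 1199, was the strongest region of the window in the E10.5 list only. Beyond the 3′ end, 2 shared regions at chr2:115855879-115856128 and chr2:115859411-115860015 had E11.5 signals of 484 and 367. None of the 24 non-promoter E10.5 regions of this window was at a protein-coding start site. Of them 9 were shared, where 22.4% of such regions in the list were. The median place of the 24 was 47.8% from the top.

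Meis1 held 16 intragenic E10.5 regions, more than 97.3% of protein-coding genes, and 2 of them were shared. Per kb of window, all its regions together stood at percentile 69.4 in the E10.5 list and 38.8 in the E11.5 list. The strongest, at chr11:18916548-18917485, 102 kb into the gene, had a signal of 3873 at E10.5 (14.0% from the top) and of 1002 at E11.5 (chr11:18916579-18917393, 42.1% from the top). The next 2, at chr11:19012443-19014190 with a signal of 1682 and at chr11:19007691-19008455 with a signal of 1355, were in the E10.5 list only. The first of these is the strongest E10.5-only region of the window and spans the start of the noncoding RNA gene Gm16141. The other shared intragenic region lay 2.72 kb into the gene, with a signal of 639 at E10.5 and of 284 at E11.5 (chr11:19015687-19016470).

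Flanking Meis1, 2 of 9 E10.5 regions were shared. The region beyond the 3′ end at chr11:18876209-18878459 had a signal of 4089 at E10.5 and of 1758 at E11.5 (chr11:18876925-18878263). It spans the start of the noncoding RNA gene 8430419K02Rik. The region 7.82 kb upstream, at chr11:19026524-19027956, had a signal of 3167 at E10.5 and of 1299 at E11.5 (chr11:19026538-19027594). Next by E10.5 signal, a region of 840 (chr11:18875115-18876058), was in the E10.5 list only. The window held no protein-coding gene other than Meis1.

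**Figure D3:**
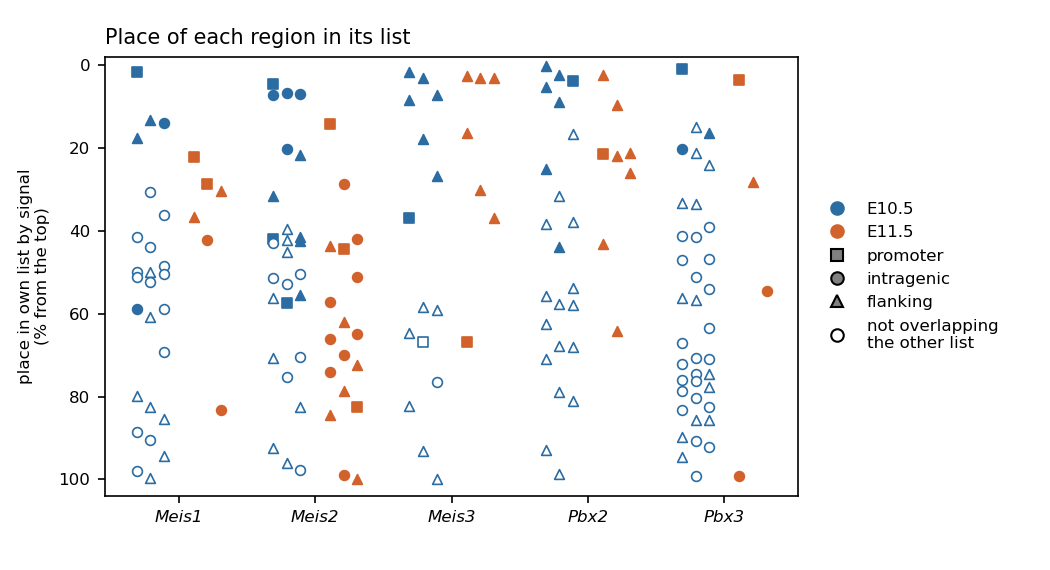
Place of each region within its own list by signal, in percent from the top, for each gene, with E10.5 in blue and E11.5 in orange, symbols for the class, and open symbols for regions that do not overlap the other list. The lowest shared E10.5 region stands at 58.8%, in Meis1, and the E11.5 regions of Meis2 reach from 14.3 to 99.95%.

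The windows of Pbx2 and Meis3 were rich in other genes. The Pbx2 window held 12 other protein-coding genes and that of Meis3 held 9. Pbx2 had no intragenic region in either list, and the 1 intragenic E10.5 region of Meis3, with a signal of 381, was not shared. All 6 shared flanking regions of Meis3 lay at start sites of Napa, Kptn, Slc8a2, Dhx34, Inafm1 and Ccdc9. None of its 7 non-promoter E10.5 regions away from such starts was shared, where 22.4% of the list at no such start were. Those 7 had a median place of 76.4% from the top. The strongest of the 6, at Inafm1 (chr7:16272136-16274680), had a signal of 10311 at E10.5 and of 7044 at E11.5 (chr7:16272615-16274555). It was followed by that of Napa, with 8606 at chr7:16097755-16099339 and 6729 at chr7:16097784-16099278. The Ccdc9 region had 5972 at chr7:16285285-16286944 and 6726 at chr7:16285305-16286939. These exceed the signals of the Meis3 promoter itself in both lists. The strongest E10.5-only region of the Meis3 window, with a signal of 646, lay in Slc8a2 at chr7:16153474-16153851.

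In the Pbx2 window, 11 of the 22 flanking E10.5 regions lay at other protein-coding start sites, and 4 of these were shared, where 84.1% of E10.5 regions at protein-coding starts in the list were. Of the other 11, 2 were shared, where 22.4% of the list at no such start were. The strongest, over the start sites of Rnf5 and Agpat1 at chr17:34602821-34606953, had a signal of 18299 and rank 197 at E10.5 and held 2 E11.5 regions, with signals of 7230 (chr17:34603147-34605337) and 2160. The second lay inside Notch4, a Notch receptor gene of endothelium, 4.74 kb upstream of the Pbx2 start site and at no start site. It had a signal of 9287 at E10.5 (chr17:34585921-34588381, 2.41% from the top) and of 4518 at E11.5 (chr17:34586502-34588130, 9.57% from the top). The third lay at the starts of Ppt2 and Prrt1 (chr17:34626422-34628822), with a signal of 6933 in the E10.5 list and 2605 in the other. At E11.5 a region at the start of Atf6b (chr17:34646889-34647802) had 2699, the third flanking signal of that list. The strongest E10.5-only region, at chr17:34640742-34641793 between genes, had a signal of 3318 and stood 16.7% from the top.

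The shared part of the E10.5 regions fell with their signal. In the top quintile of the E10.5 list by signal, 20 of 22 member regions were shared, beside 89.0% of the list. In the next quintiles it was 7 of 18 beside 43.9%, and 7 of 37 beside 16.9%. It was 0 of 25 beside 7.55% and 0 of 27 beside 4.15% in the lowest ones, and 0 of 25 allows a share of up to 13.3% by the Wilson bound. The 2 regions of the top quintile that were not shared were the one between genes in the Pbx2 window and the one at C230014O12Rik in the Pbx3 window. At Pbx3, 3 of the 9 regions in the upper 2 quintiles were shared, where 66.4% of the list were, and none of 29 in the lower 3, where 9.53% were. At Meis2 it was 7 of 8 and 5 of 19. At Meis1 it was 4 of 6 and 1 of 20. At Pbx2 it was 6 of 10 and 1 of 13, and at Meis3 7 of 7 and 0 of 8. The list shares join regions at protein-coding start sites, of which 84.1% were shared, with the rest, of which 22.4% were. Of the 9 at Pbx3, the promoter region and that at Mapkap1 lay at such starts, and both were shared. Region class was not matched in these comparisons.

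**Figure D4:**
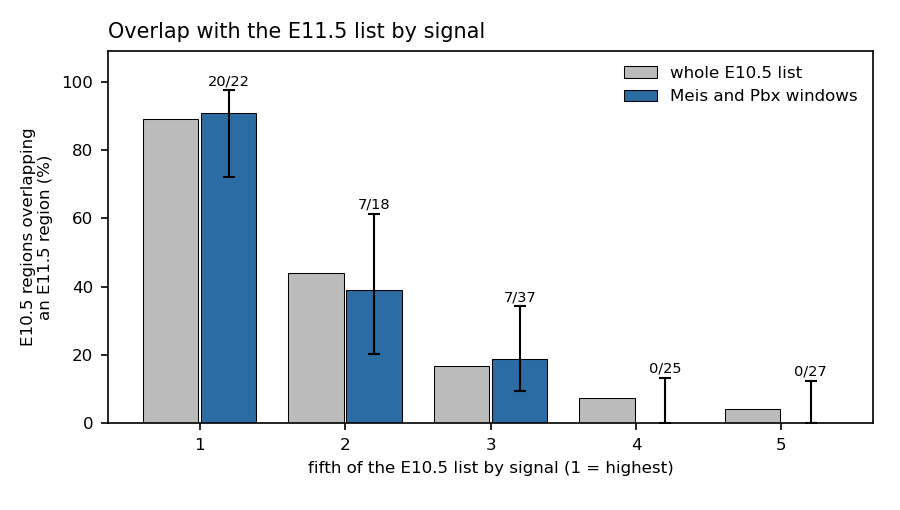
Share of E10.5 regions that overlap an E11.5 region, in percent, by quintile of the E10.5 list from the highest signal (1) to the lowest (5), for the whole list (grey) and for the windows of the 5 genes (blue, with 95% Wilson intervals and counts). The blue bars fall from 20 of 22 to 0 of 27, and the intervals hold the grey value in each quintile.

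A list of 12 other TALE homeobox genes (the Pknox, Tgif and Irx genes, Mkx and Pbx4) had a promoter region for 12 of 12 in the E10.5 list and for 11 in the other. The exception was Irx4, with a signal of 867 at chr13:73260176-73261351. A list of 20 genes of proximal-distal limb patterning had promoter regions for 20 and 18. The exceptions were Cyp26b1, which breaks down retinoic acid, with a signal of 325 at chr6:84594632-84595057, and the apical ridge ligand Fgf8, with a signal of 2637 at chr19:45740943-45743891. These lists were chosen with earlier results known. Of 10 limb mesenchyme markers, 10 had a promoter region in the E10.5 list and 8 in the E11.5 list, while of 5 markers of other organs 2 and 1 did, and of all protein-coding genes 69.4% and 63.5%. Promoter regions were also present for 7 and 4 of 8 surface ectoderm markers, 3 and 1 of 5 endothelial, 2 and 3 of 5 blood, 5 and 2 of 5 muscle precursor and 4 and 3 of 5 nerve and glia markers. Of the limb mesenchyme markers, Tbx5 and Pitx1 had a promoter region in the E10.5 list only. In lists from whole limbs, fewer cells of a type and less open chromatin per cell cannot be told apart. Nor can either be told apart from the shorter length of the E11.5 list, since depth is unknown.

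Likeness to each gene was measured over 6 values, the log2 (count + 1) of promoter, intragenic and flanking regions in each list, as a Euclidean distance. The nearest protein-coding genes were Osbpl3 and Smoc1 for Meis1 (0.60 and 0.63), Csrnp3 and Cped1 for Meis2 (0.88 and 1.07), 4430402I18Rik and Sidt2 for Meis3 (0.19 and 0.21) and Rapgef4 and Sipa1l1 for Pbx3 (0.06 and 0.22). For Pbx2, 6 genes had the same 6 counts, Agbl3 and Emc1 first in the alphabet. Meis2 had the most distant nearest gene of the 5.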

How the data were processed

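Per the file headers, the deposited files are narrowPeak lists on mm10, 1 per stage, each named for 2 replicates. The submitters' processing notes name cutadapt, Bowtie2, SAMtools, deepTools and Genrich without versions or settings; the handling of replicates and any shift for Tn5 are not given in the sources used here. The authors' signal value is a total over the peak. The deposited score restates signal per bp and was not used. The deposited −log10 p was used for alternatives, and the q column holds -1 throughout.

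Peaks on chromosomes 1 to 19, X and Y were kept (71 and 135 left out) and lie at least 101 bp apart. Gene positions came from RefSeq tables of GRCm38.p6. Of 21887 protein-coding genes, 21536 had a strand, 17492 from the RefSeq promoter table and 4044, Pbx3 among them, by symbol from GENCODE M1, whose coordinates (NCBIM37) were not used. Start sites were the outer end of the gene and those of the promoter table. Exons, introns and UTRs were not used here. Named regions are the promoter regions, the 3 strongest intragenic and flanking regions per list, and the strongest in the E10.5 list only. The nearest genes by pattern are those of smallest distance. Overlap code was tested on simulated data. Intervals are Wilson 95%. Depth is unknown. The members and lists were chosen with earlier results of these data known. Python 3.11.15, pandas 2.3.3 and SciPy 1.17.1 were used.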

Additional observations from a re-analysis of the deposited data

How the results depend on the processing

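No paired analysis was possible because replicates were joined within each deposited list, and none could be left out. Leaving out peaks of −log10 p below 5, the windows held 73 and 26 regions, and gene bodies alone held 59 and 20, fewer by construction. With the E10.5 list reduced to the length of the other by signal, 36 E10.5 regions were left, 75% of them shared, and 83.7% of the E11.5 regions were shared. Reduced by −log10 p, these were 37 regions, 75.7% and 86.0%. The whole lists moved likewise, to 68.9% and 75.3% by signal and 70.2% and 76.4% by −log10 p. Reciprocal overlap of 50% gave 19.4% of E10.5 regions and 58.1% of E11.5 regions (whole lists 20.3% and 53.8%). At E11.5, summits within 100 bp gave 65.1% and 200 bp around each summit 72.1% (whole list 70.6% and 76.2%). On the gene strand alone, 1 promoter held CCAAT. Beside these 15 summary values, 65 stayed within their interval or 1.5 times the count, among them the number of genes with a promoter region, which was 4 in place of 5 in 5 settings. Of values for single genes, 77 moved and 133 did not. These shares, counts and places have no sign, and the order of the genes did change, in part as given beside the shares and promoter places. Among further changes at E10.5, the Meis2 share fell below that of Pbx2 with reciprocal overlap of 50% (22.2% against 26.1%). The Meis3 share fell below that of Pbx2 with summits within 100 bp (26.7% against 30.4%). It also did so with flanks of 50 kb (33.3% against 43.8%). Single-gene values that moved include the promoter places under other rankings, and the windows of Meis3 and Pbx2 up to the next gene, which held 3 and 1 E10.5 regions. Pbx3 had the lowest E10.5 share of the 5 genes with both reductions (37.5% of 8 regions in each). The windows then held only 5 to 9 E10.5 regions each. The choice of start sites and the setting without starts of other genes were added after seeing the data. Unknown depth limits every count.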
